A study of Rattus norvegicus with 24 samples.

Results

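The 9 genes that encode the AMPA and kainate classes of glutamate receptor were followed in fetal rat cortex after 3 maternal treatments that are used to model schizophrenia in rodents. They are the 4 AMPA receptor genes Gria1, Gria2, Gria3 and Gria4 and the 5 kainate receptor genes Grik1, Grik2, Grik3, Grik4 and Grik5. The genes were chosen by name from the 17420 genes of the deposited table, and all 9 were among the 13371 genes with a value above the floor of the table in at least 18 of 24 pups. Hippocampus and neocortex of Sprague-Dawley rats were collected on embryonic day 18, and RNA was sequenced from 24 pups in 4 groups of 6. The saline dams were injected with saline on gestational day 17, the MAM dams received the DNA-methylating agent methylazoxymethanol acetate at 22 mg/kg on that day, and the Poly I:C dams received the synthetic double-stranded RNA polyinosinic:polycytidylic acid, a mimic of viral infection, at 7.5 mg/kg on that day. Tissue was taken 18 h after injection. The Low Protein dams ate a diet with 6.1% protein from gestational day 11, against 20.3% in the control diet. Which diet the saline, MAM and Poly I:C dams ate, and whether the Low Protein dams were also injected, is not given in the sources used here. Each group held 3 pups from each of 2 litters, as read from the sample names, so that the dam was the treated unit and the pup was the replicate in the tests. Pups of a litter shared a dam, and the p-values measure the spread between pups.

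Both receptor classes are cation channels that open when they bind glutamate. AMPA receptors carry most fast excitatory transmission in the mature forebrain, and the GluA2 subunit, the product of Gria2, keeps calcium out of the channel once its transcript has been edited. Kainate receptors act on both sides of the synapse; GluK1, GluK2 and GluK3 can form channels on their own, whereas GluK4 and GluK5, products of Grik4 and Grik5, have high affinity for kainate and work as partners of the others.

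The samples held the labelled tissue. Of 10 markers of the dorsal telencephalon, 9 were in the table, and the saline pups had a summed level of 219 to 407 TPM, the length-scaled unit of the table. The 219 was saline pup 2.1, and the other 5 had 332 to 407. This pup also had the highest saline sums for the marker lists of the ganglionic eminence, striatum, thalamus, oligodendrocyte lineage and endothelium. With it, 0, 0 and 1 of the 9 members passed the unadjusted limma threshold described below (Low Protein, MAM and Poly I:C). Of all genes, 4.47%, 7.46% and 5.3% were then lower at that threshold. Without saline pup 2.1, 0, 2 and 0 members passed, where 2.95%, 11.2% and 4.12% of all genes were lower. The 2 were Gria2 (log2 fold change -0.33) and Gria3 (-0.36). The other groups reached the same levels, with 332 to 445 after Poly I:C, 329 to 397 after MAM and 282 to 422 under the Low Protein diet. The depth was estimated at 24.3 to 68.6 M reads per pup, from the smallest steps between the values of low genes. The members were covered by about 117 to 11338 reads in a pup, lowest for Grik1 and highest for Grik5. In bulk tissue, fewer cells of a type and less RNA per cell cannot be told apart.

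Grik5 and Gria2 were the most abundant subunit transcripts of the control fetal cortex. The deposited TPM values behave as values per base of genomic span, introns included, so that a long gene has a low value. On that scale the saline mean was 2.17 TPM ± 0.259 (SD, n = 6) for Grik5 and 0.997 ± 0.166 for Gria2. The next level belonged to Grik3, at 0.166 ± 0.0141, and to Gria1, at 0.156 ± 0.00946. Below them came Gria3 at 0.1004 ± 0.0206, Gria4 at 0.0563 ± 0.0114, Grik4 at 0.0371 ± 0.00293, Grik2 at 0.0287 ± 0.00309 and Grik1 at 0.0207 ± 0.00365. The ranges of the 6 saline pups overlapped for 3 pairs of neighbours in this order, namely Grik3 and Gria1, Gria3 and Gria4, and Grik4 and Grik2, and for no other pair of neighbours. Grik5 lay above 74.8% of all genes tested and Grik1 above 11.9%.

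Multiplied by the genomic span, the values become shares of reads, which favour long transcripts in place of short genes. The order was then Grik5, Gria2, Gria1, Grik3, Gria4, Gria3, Grik2, Grik4 and Grik1, so that 3 members kept their place and Grik5 and Gria2 overlapped. Gria2 held 53.7% of the reads of the AMPA genes, and Gria1 held 22.4%. Grik5 held 62.7% of the reads of the kainate genes, and Grik3 held 16.7%. Of the 27 shares in treated groups, 26 overlapped saline. The exception was the share of Gria2 among AMPA reads after Poly I:C, at 57.4% ± 1.69 against 53.5% ± 2.29 in saline pups (SD, n = 6). The lowest Poly I:C pup had 55.44% and the highest saline pup 55.41%, so that the groups were barely apart. The share was singled out after its values were seen and was given no test. Low Protein pups had 54.7% ± 2.50 and MAM pups 53.0% ± 2.28.

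**Figure D1:**
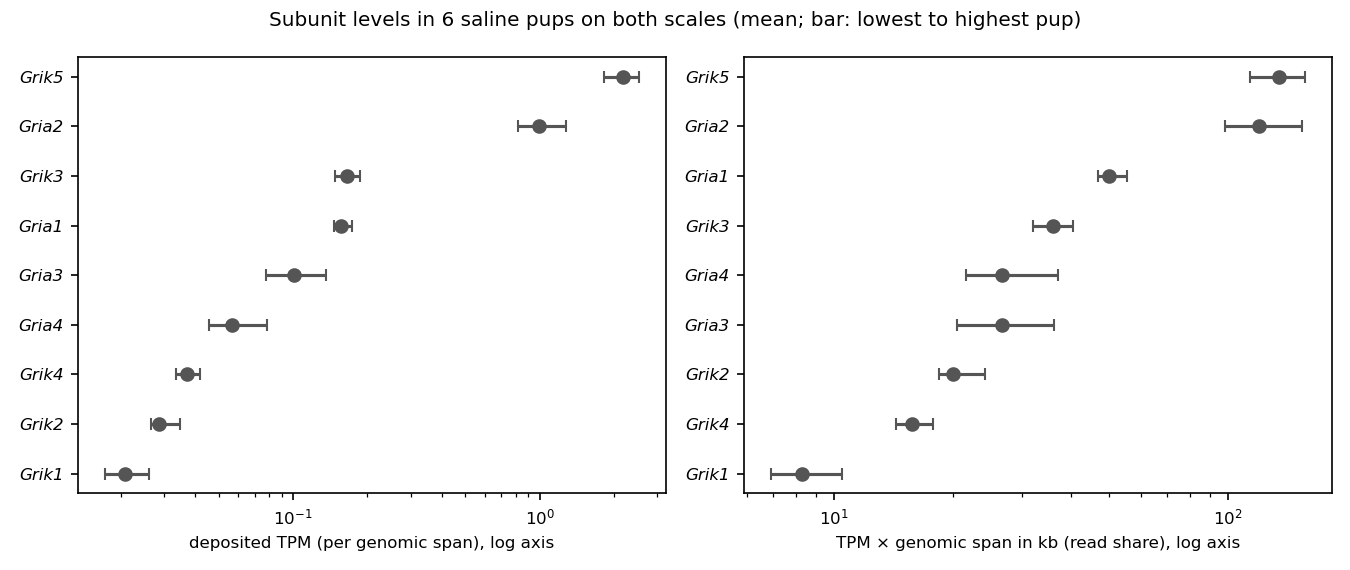
Levels of the 9 subunit genes in saline pups as deposited TPM (left) and as TPM multiplied by genomic span in kb (right), on log axes; points are means of 6 pups and bars run from the lowest to the highest pup. Grik5 and Gria2 lead on both scales, and Grik3 and Gria1, Gria3 and Gria4, and Grik4 and Grik2 change places.

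The windows before the annotated starts differ in base composition. RefSeq windows of the assembly GRCr8, a later build than the rn6 used for the values, were at hand for 6 of the 9 members, Gria4, Grik1, Grik2, Grik3, Grik4 and Grik5. Each window precedes 1 annotated transcript start. For Grik2 and Grik3 that start is the outermost of the gene, whereas the windows of Grik1, Grik4 and Grik5 lie inside the annotated span of the gene and that of Gria4 does so in part. The start used for Grik4 lies 127 kb inside the span. The 250 bases before the start are printed for 2 pairs of genes, Grik3 with Grik5 and Gria4 with Grik1. Their Pearson's r from pup to pup, with group means subtracted, was 0.644 and 0.878. Grik2 was as close to Grik1 (0.883) and to Gria4 (0.854), and its window is not printed. A relation between the windows and this likeness was not tested. Capitals mark the GC box, searched as GGGCGG or its reverse complement CCGCCC on the strand shown.
Grik3, chr5:143052192-143052441, plus strand: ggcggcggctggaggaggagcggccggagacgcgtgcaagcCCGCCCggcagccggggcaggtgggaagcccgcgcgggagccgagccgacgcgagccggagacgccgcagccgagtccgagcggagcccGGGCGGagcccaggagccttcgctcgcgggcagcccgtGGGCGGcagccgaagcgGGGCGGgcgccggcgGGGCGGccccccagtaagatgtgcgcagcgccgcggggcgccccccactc
Grik5, chr1:89794910-89795159, minus strand: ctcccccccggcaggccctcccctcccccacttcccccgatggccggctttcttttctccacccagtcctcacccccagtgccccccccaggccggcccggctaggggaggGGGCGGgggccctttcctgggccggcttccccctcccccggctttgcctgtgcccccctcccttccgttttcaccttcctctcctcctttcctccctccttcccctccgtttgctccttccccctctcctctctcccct
Gria4, chr8:10319882-10320131, minus strand: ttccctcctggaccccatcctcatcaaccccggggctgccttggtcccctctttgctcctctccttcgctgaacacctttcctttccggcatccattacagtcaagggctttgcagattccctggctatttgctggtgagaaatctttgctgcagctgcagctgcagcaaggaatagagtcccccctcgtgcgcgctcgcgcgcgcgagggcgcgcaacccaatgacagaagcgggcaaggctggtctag
Grik1, chr11:41056504-41056753, minus strand: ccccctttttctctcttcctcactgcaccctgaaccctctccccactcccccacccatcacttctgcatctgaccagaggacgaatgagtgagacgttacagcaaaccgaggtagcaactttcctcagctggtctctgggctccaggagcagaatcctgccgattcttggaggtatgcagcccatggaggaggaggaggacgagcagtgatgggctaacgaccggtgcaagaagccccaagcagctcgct
The Grik3 window was 81.6% G or C, more than 99.3% of the 33469 windows of the same length, and held 5 GC boxes. The Grik5 window was 70.8% G or C and held 1 GC box. Gria4 at 59.6%, Grik1 at 57.6%, Grik2 at 49.6% and Grik4 at 43.2% held none, against a median of 51.2% G or C over all windows. A GC box was present in 30.5% of all windows. The TATA box letters TATAAA (12.9% of all windows) and the cAMP response element TGACGTCA (1.59%) were in none of the 6, on either strand. These are matches of letters, and binding was not measured.

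Against saline, the subunit genes lay slightly lower in each treatment group, and none passed the test after adjustment over all genes. The log2 fold change was below 0 for all 9 members under the Low Protein diet, where 54.9% of all genes tested were below 0. It was below 0 for all 9 after MAM, against 70.6% of all genes, and for 8 of 9 after Poly I:C, against 49.3%. The 3 comparisons share the 6 saline pups, so that they are not independent of each other. The members had a median log2 fold change of -0.20 under Low Protein (all genes -0.02), -0.21 after MAM (all genes -0.07) and -0.16 after Poly I:C (all genes 0.00). By limma, with the comparisons taken in that same order, 0, 0 and 1 of the 9 passed an unadjusted p of 0.05, where 7.11%, 9.62% and 9.15% of all genes did in either direction. With the adjusted p, 0 members passed in any comparison, against 0%, 0.015% and 0% of all genes, and the lowest adjusted p of a member was 0.482. By the exact permutation test on each gene alone, 2, 3 and 0 members had a p under 0.05, against 9.17%, 13.1% and 7.73% of all genes. The limma spread is shared by all 4 groups. In fits of only the 12 pups compared, 3, 3 and 0 members passed the unadjusted threshold, against 8.84%, 13.2% and 7.34% of all genes. With scaling by the median of ratios, the share of genes at an unadjusted p under 0.05 that were higher moved most after MAM, where it went from 22.4% to 65.1%. It went from 37.1% to 50.9% under Low Protein and from 42.0% to 45.5% after Poly I:C. Of the 9 members, 9, 8 and 8 were then lower under Low Protein, after MAM and after Poly I:C. Upper quartile scaling gave shares of 34.2%, 55.3% and 30.4% and left 9, 8 and 9 members lower.

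**Figure D2:**
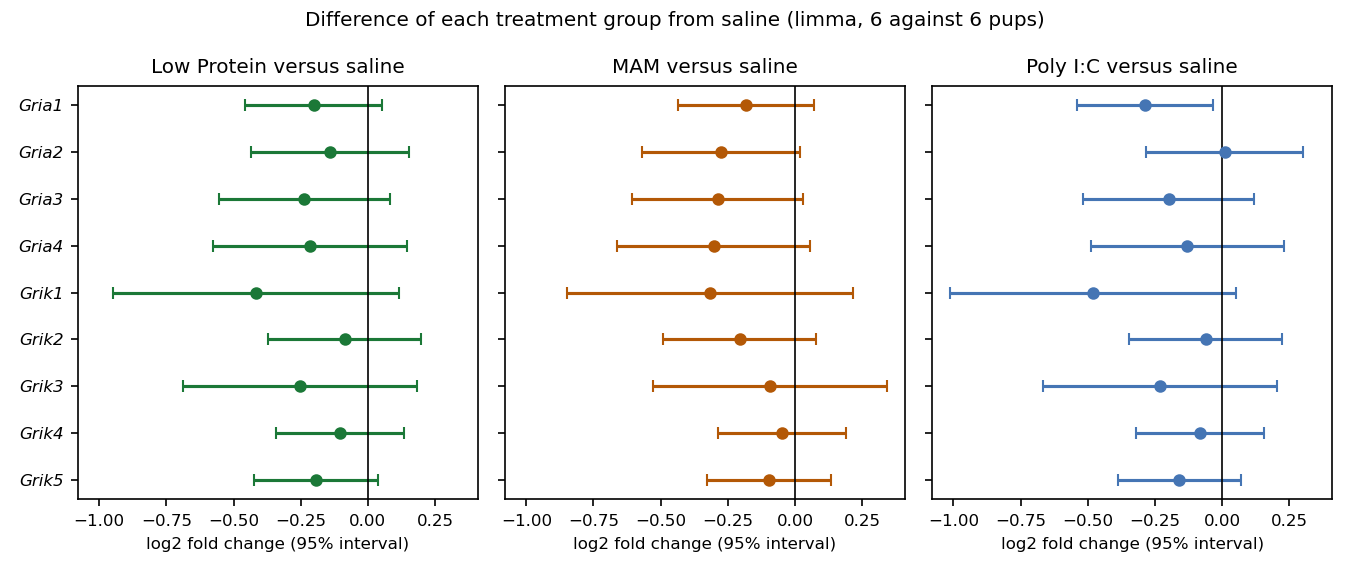
Log2 fold change of each subunit gene in each treatment group relative to saline, from limma with 6 pups a group; bars are 95% intervals. All points but Gria2 in Poly I:C lie below 0, and only the interval of Gria1 in Poly I:C leaves out 0.

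Among the AMPA genes, Gria1, whose product is a subunit moved in and out of synapses during plasticity, differed with little spread inside 3 of the groups. It ran from 0.147 to 0.173 TPM in saline, with a median of 0.154. In Low Protein it ran from 0.121 to 0.143, with a median of 0.139, so that all 6 pups lay below the lowest saline pup. The log2 fold change in Low Protein was -0.20 (SE 0.123; limma unadjusted p = 0.113, adjusted p = 0.761), and the exact permutation p was 0.00216, the smallest that 6 pups against 6 can give. Such a gap below saline was found in 0.524% of all genes. In MAM pups Gria1 ran from 0.129 to 0.155, with a median of 0.134, and 5 of 6 pups lay below the lowest saline pup (log2 fold change -0.18, SE 0.123, limma adjusted p = 0.582; exact permutation p = 0.0130). The Poly I:C pups spread from 0.0909 to 0.174, with a median of 0.131, and so covered the saline range on both sides. Their log2 fold change was -0.29 (SE 0.123), the only member value with an unadjusted limma p under 0.05 (p = 0.0279, adjusted p = 0.482), while the exact permutation p was 0.141. That call was lost without Poly I:C pup 1.3, 2.2 or 2.3 or saline pup 2.1, when the log2 fold change lay between -0.26 and -0.19.

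Gria2 gave no such separation. Saline pups had 0.817 to 1.28 TPM, with a median of 1.00. The Low Protein median was 0.895 (0.715 to 1.12), the MAM median 0.799 (0.655 to 1.07) and the Poly I:C median 1.06 (0.705 to 1.26). All 4 ranges overlapped. The log2 fold change was -0.14 (SE 0.142; limma adjusted p = 0.884), -0.28 (adjusted p = 0.522) and 0.01 (adjusted p = 0.991) in the order Low Protein, MAM and Poly I:C, and the last value turned to -0.01 with upper quartile scaling. Without saline pup 1.3, the highest saline pup, the Low Protein value was -0.065. The ratio of Gria2 to Gria1 was 4.72 to 8.05 per span in saline and 6.57 to 11.5 in Poly I:C pups, which overlapped. The ratio of Gria2 to Gria3 varied less. Saline pups had 9.44 to 10.6, and the ratio was 9.25 to 11.3 after MAM, 9.83 to 11.7 under Low Protein and 10.4 to 13.0 after Poly I:C.

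Gria3 and Gria4, which encode the remaining AMPA subunits, were lower in all 3 groups without passing limma. Gria3 ran from 0.0774 to 0.136 TPM in saline, and its log2 fold changes were -0.24, -0.29 and -0.20 (SE 0.154; lowest limma adjusted p = 0.536). Without saline pup 1.3 they were -0.14, -0.19 and -0.11, and without Poly I:C pup 2.2 the last was -0.10. Gria4 ran from 0.0456 to 0.0780 in saline with a median of 0.0542. The MAM pups were close together, from 0.0407 to 0.0492, with all 6 below the saline median (log2 fold change -0.30, SE 0.174, limma adjusted p = 0.544; exact permutation p = 0.0152). Saline pup 1.3 was far above the other saline pups for Gria4, and without it the log2 fold change was -0.20 after MAM, -0.12 under Low Protein and -0.03 after Poly I:C. Gria4 was more spread under Low Protein, at 0.0366 to 0.0625, and after Poly I:C, at 0.0328 to 0.0696, and both ranges reached below the lowest saline pup.

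Among the kainate genes, Grik1 had the fewest reads and, with all pups, the largest fold changes. Saline pups had 0.0172 to 0.0261 TPM, with a median of 0.0193. The median was 0.0157 under Low Protein (0.0112 to 0.0209), 0.0170 after MAM (0.0123 to 0.0204) and 0.0171 after Poly I:C (0.00572 to 0.0222). The log2 fold changes were -0.42, -0.32 and -0.48 (SE 0.257), with exact permutation p-values of 0.0563, 0.0649 and 0.141, so that none passed. The lowest value, in Poly I:C pup 2.2, rested on about 117 reads. Without that pup the Poly I:C value was -0.21, against -0.24 for Grik3 in the same fit. Grik2, the gene of the widely expressed GluK2 subunit, differed by -0.09, -0.21 and -0.06 (SE 0.138). In MAM pups it ran from 0.0221 to 0.0288 against 0.0265 to 0.0346 in saline, with 4 of 6 pups below the lowest saline pup (exact permutation p = 0.0325; limma adjusted p = 0.581). Saline pup 1.3 was also the highest for Grik2, and without it the value was -0.15. Grik3 differed most in Low Protein pups, which ran from 0.106 to 0.168 against 0.148 to 0.187 in saline (log2 fold change -0.25, SE 0.210, limma adjusted p = 0.845; exact permutation p = 0.0368). In Poly I:C pups Grik3 ran from 0.0588 to 0.234, both the lowest and the highest value of the 24 pups. Its Poly I:C log2 fold change was -0.23, and 0.02 without pup 1.3, which held the lowest value.

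Grik4 and Grik5, the partner subunits, did not pass either test in any group. Grik4 ran from 0.0336 to 0.0417 TPM in saline, and its log2 fold changes were -0.10, -0.05 and -0.08 (SE 0.115), of which the MAM value turned to 0.02 with median of ratios scaling and to 0.00 with upper quartile scaling. The 95% interval in MAM was -0.29 to 0.19. Grik5 ran from 1.83 to 2.53 in saline, and its log2 fold changes were -0.19, -0.10 and -0.16 (SE 0.111; lowest limma adjusted p = 0.695). Its 95% interval in Low Protein was -0.42 to 0.04.

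**Figure D3:**
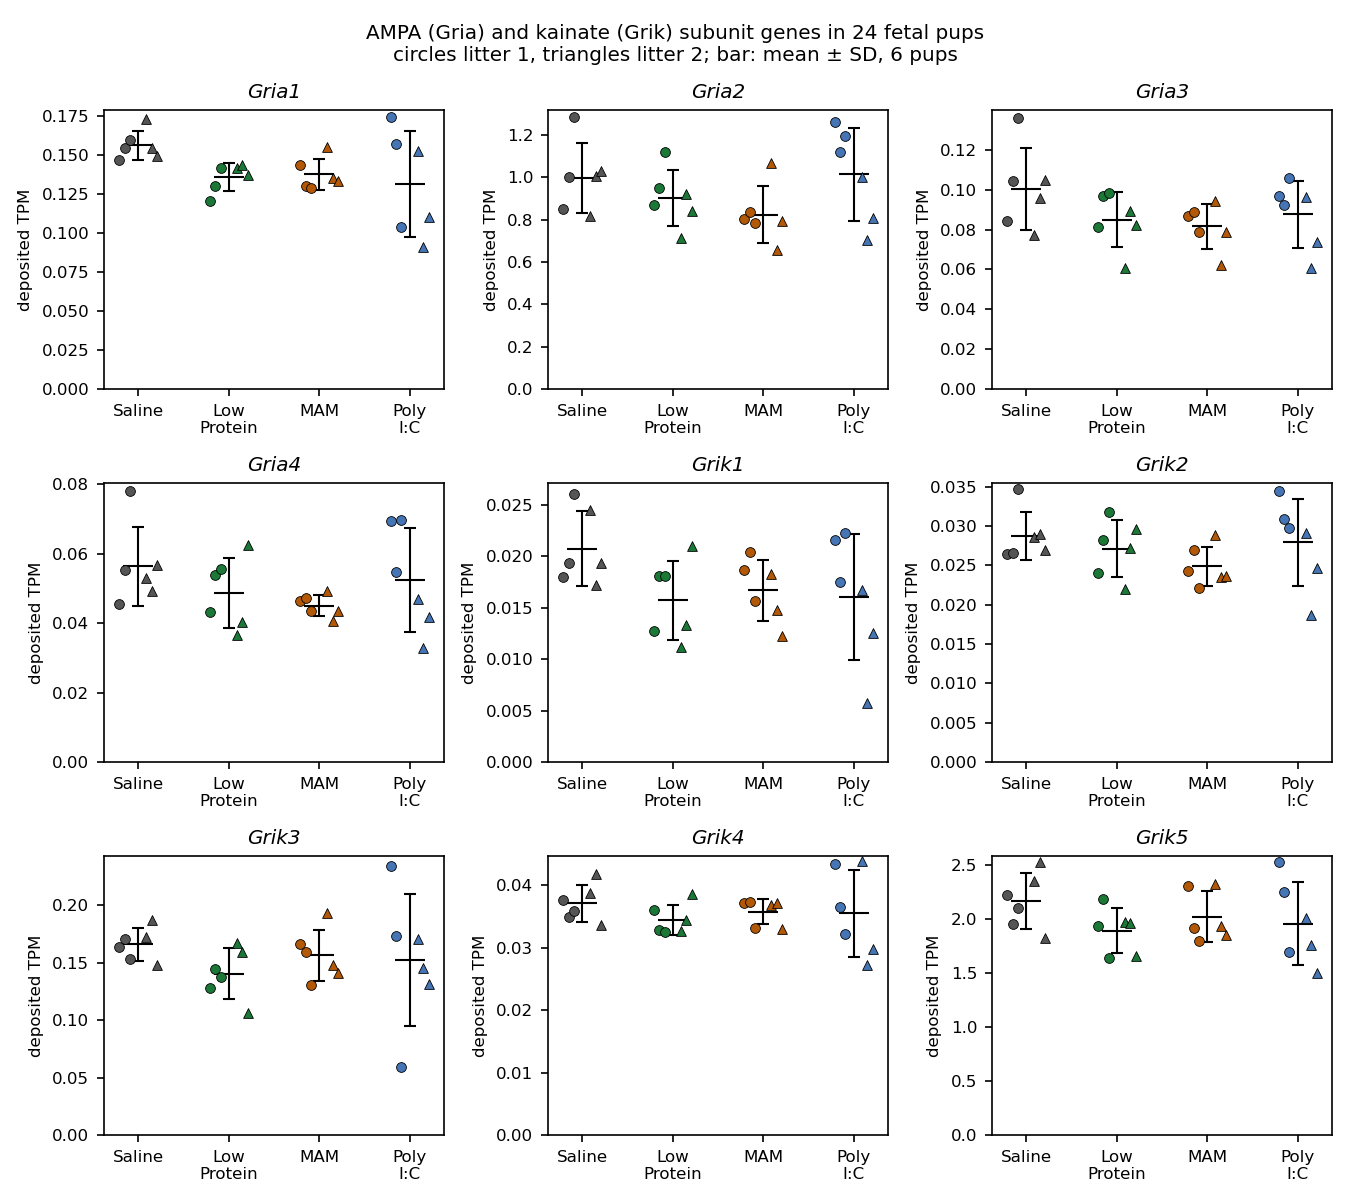
Deposited TPM of each subunit gene in every pup, by maternal treatment; circles are pups of litter 1 and triangles pups of litter 2, and bars are the mean ± SD of 6 pups. Gria1 in Low Protein lies wholly below saline, and the Poly I:C pups have the largest SD for all genes but Gria3.

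The 3 treatments were not separated from each other by these genes. In the F test over the 4 groups, 0 of 9 members passed an unadjusted p of 0.05, against 12.7% of all genes, and the lowest p was 0.150 for Gria1 (limma adjusted p = 0.535). Between treatments, 0 of 9 passed in MAM versus Low Protein, Poly I:C versus Low Protein and Poly I:C versus MAM, against 8.57%, 4.9% and 17.9% of all genes. The widest difference was that of Gria2, higher in Poly I:C than in MAM by 0.28 on the log2 scale (SE 0.142; 95% interval -0.01 to 0.58; limma unadjusted p = 0.0560, adjusted p = 0.294).

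The 2 litters of the Poly I:C group lay apart for 4 of the 9 members. Across genes and all 4 groups, pups of 1 litter were hardly more alike than pups of different litters. With group means subtracted, the median correlation was -0.214 within litters and -0.218 between the litters of a group. The consensus correlation within litters was 0.0075. On the log2 scale the mean of litter 1 was above that of litter 2 for 8 of 9 members. The exception was Grik3, whose TPM mean was slightly higher in litter 1, at 0.156 against 0.149, with pup 1.3 as the lowest value. The pups of the litters did not overlap for 4 of 9, namely Gria2, Gria4, Grik1 and Grik2. Over all genes the Poly I:C litters did not overlap in 18.2%, and litter 1 had the higher mean in 57.2%. In the other groups 0 members had litters apart, against 4.94% of all genes in saline, 16.9% in Low Protein and 6.64% in MAM. With 3 pups against 3 the exact test cannot go below 0.10, so that no test of the litters was made.

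Grik1 showed the widest gap between the Poly I:C litters. Litter 1 had 0.0215, 0.0174 and 0.0222 TPM, within the saline range, and litter 2 had 0.0167, 0.00572 and 0.0125, all below the lowest saline pup. Gria4 had 0.0693, 0.0546 and 0.0696 in litter 1 and 0.0470, 0.0328 and 0.0418 in litter 2. Gria2 had 1.26, 1.12 and 1.19 in litter 1, all above the saline median, and 1.00, 0.705 and 0.806 in litter 2. For these genes the mean of litter 1 was near or above the saline mean and that of litter 2 below it. On the log2 scale the means relative to saline were 0.21 and -0.47 for Gria4, 0.27 and -0.25 for Gria2, and -0.01 and -0.95 for Grik1. Pup 2.1 was within the saline range for Gria2 and Gria4. Litter 1 was itself below saline for Gria1 (-0.14, against -0.44 in litter 2) and for Grik3 (-0.31, against -0.16). The median of litter 1 minus litter 2 was 0.38 for the 9 members and 0.04 for all genes on the log2 scale. Over all genes, differences of opposite sign cancel in this median. Litter 1 lay wholly above litter 2 in 11% of genes and wholly below it in 7.2%.

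The comparison of Poly I:C with saline turned on which litter was used. Without litter 1, 4 of 9 members were lower at an unadjusted limma p under 0.05, against 17.9% of all genes in either direction. These were Gria1 (log2 fold change -0.44, SE 0.119, adjusted p = 0.0609), Gria4 (-0.47, adjusted p = 0.165), Grik1 (-0.95, adjusted p = 0.0777) and Grik5 (-0.30, adjusted p = 0.174). Without litter 2, 0 of 9 passed, against 4.79% of all genes. The summed level of 8 genes of neuronal maturation was apart between the litters. It was 31.5 to 40.9 TPM in litter 2, 43.2 to 44.9 in litter 1 and 43.0 to 47.6 in saline pups. It was 37.0 to 43.7 under Low Protein and 37.6 to 42.7 after MAM. A sum is weighted to the highest genes. As the mean log2 difference from saline, the list overlapped between the litters (-0.18 to 0.07 in litter 1, -0.60 to -0.07 in litter 2). By limma at the unadjusted threshold, 3 of the 8 genes were lower after Poly I:C (5.3% of all genes), 2 under Low Protein (4.47%) and 2 after MAM (7.46%). Other marker sums were also apart between the Poly I:C litters. Endothelial genes (40.5 to 48.1 TPM in litter 1, 53.0 to 67.9 in litter 2) and microglial genes (5.80 to 7.63, 8.02 to 8.69) were higher in litter 2. Striatal (3.58 to 5.14, 2.77 to 3.45), oligodendrocyte lineage (19.96 to 22.2, 12.1 to 19.8) and astrocyte genes (3.20 to 3.44, 2.57 to 3.17) were lower in litter 2. As mean log2 differences from saline, the striatal and astrocyte lists stayed apart. The endothelial (-0.46 to -0.05, -0.18 to 0.19), microglial (-0.341 to 0.129, 0.125 to 0.327) and oligodendrocyte lists (-0.09 to 0.01, -0.73 to -0.02) overlapped on that scale. The part of any of these lists in the levels of the subunit genes was not tested.

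**Figure D4:**
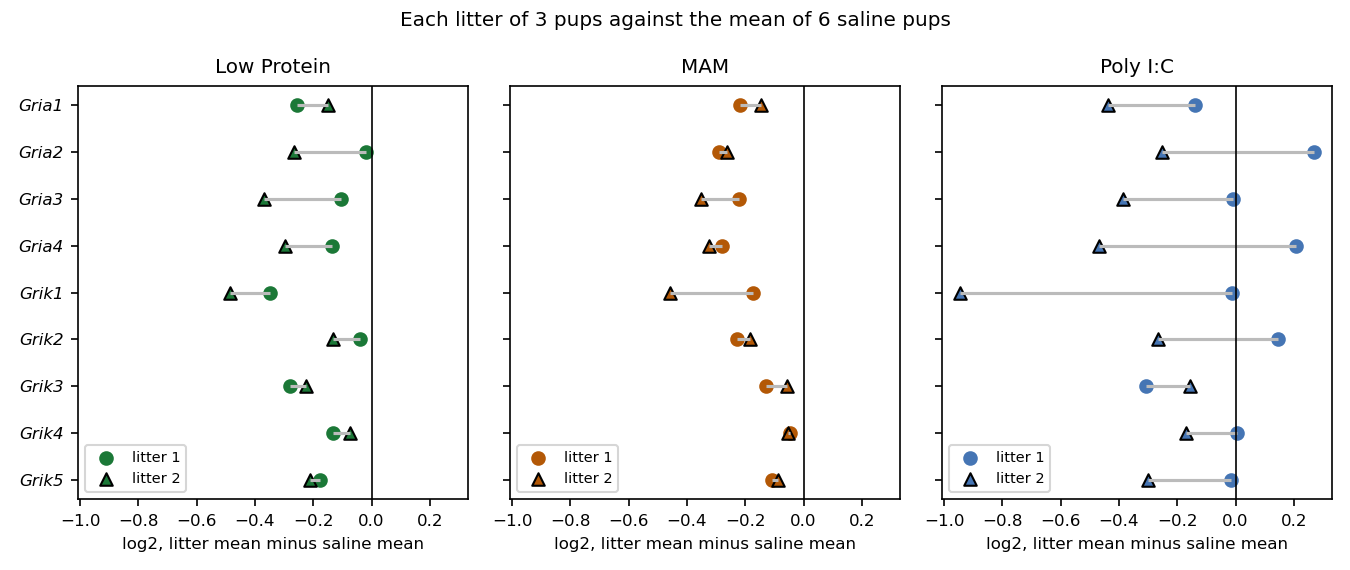
Mean of each litter of 3 pups minus the mean of the 6 saline pups, on the log2 scale, for the 9 subunit genes in each treatment group; circles are litter 1 and triangles litter 2. The Poly I:C litters lie farthest apart, up to 0.93 for Grik1, whereas both litters lie below 0 for all 9 genes in Low Protein and MAM.

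Markers of other cells that could lie in the dissected tissue differed between groups, in part through saline pup 2.1. Of 9 genes of the ganglionic eminence and its interneurons, 8 were in the table. Saline pups had a summed level of 51.3 to 105 TPM, and 51.3 to 69.0 without pup 2.1. Under Low Protein it was 43.7 to 63.8, after MAM 47.7 to 64.9 and after Poly I:C 50.9 to 74.9. At the unadjusted limma threshold 6, 3 and 0 of the 8 genes were lower in that order, against 4.47%, 7.46% and 5.3% of all genes. Without saline pup 2.1 the counts were 2, 0 and 0, against 2.95%, 11.2% and 4.12%. The 4 genes of the oligodendrocyte lineage summed to 15.3 to 28.8 in saline pups, and to 15.3 to 20.9 without pup 2.1. They summed to 10.1 to 18.8 under Low Protein, 13.9 to 20.2 after MAM and 12.1 to 22.2 after Poly I:C, with 2, 1 and 1 genes lower. In the other lists single genes passed: 1 of 6 striatal genes was lower after MAM, 1 of 4 thalamic genes was higher after Poly I:C, 1 of 5 radial glia and progenitor genes was higher after Poly I:C, and 1 of 4 microglial genes was higher after MAM. Of 4 astrocyte genes, 1 was lower under Low Protein, 1 was higher after MAM and 1 was lower after Poly I:C. Of the 9 dorsal telencephalon genes, 1 was lower and 2 were higher under Low Protein, and 1 was higher in each of the other groups. Endothelial, meningeal and blood genes gave 0. Without saline pup 2.1, the dorsal telencephalon, striatal and microglial lists gave 0 in every comparison. The oligodendrocyte list then had 1, 0 and 1 genes lower and the astrocyte list 0, 0 and 1. The thalamic and the progenitor list each still had 1 gene higher after Poly I:C. The share of the subunit differences that goes with these lists was not tested.

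Across pups, 5 of the genes, drawn from both receptor classes, varied alike. After group means were subtracted, Gria2, Gria3, Gria4, Grik1 and Grik2 had Pearson's r of 0.69 to 0.93 over 24 pups for the 10 pairs, and of 0.67 to 0.92 without Poly I:C pup 1.3. The remaining 4 genes did not form a set apart from them. Gria1, Grik3, Grik4 and Grik5 had r of 0.41 to 0.76 with each other for 6 pairs, while Gria1, Grik4 and Grik5 had r of 0.11 to 0.67 with the 5 genes for 15 pairs, and of 0.19 to 0.76 without that pup. Grik3 had r of -0.24 to 0.10 with the 5 genes, and without that pup all of these were above 0, at 0.05 to 0.33. Poly I:C pup 1.3 had the lowest Grik3 of all pups (0.0588 TPM, against 0.106 or more in the others) beside high Gria2, Gria3 and Gria4 (1.19, 0.106 and 0.0696). The set of 5 was drawn after the values were seen, pups share litters and depth, and the correlations are descriptions. Gria2 and Gria3 were the closest pair.

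The genes most like each member were found among all genes tested by the same measure. For Gria1 they were Adarb2, Mcf2l and Erc2 (r = 0.93, 0.91 and 0.91), for Gria2 they included Clasp2 and Pja2 (0.96 and 0.95), and for Gria4 they were Amz2, Enpp5 and Scn3b (0.94, 0.94 and 0.93). Gria3 was most like Gria2, then Ralgapa1 and Adgrb3 (0.93, 0.92 and 0.92). Grik1 went with Baalc, Ncald and Rgs17 (0.95, 0.95 and 0.93), and Grik2 with Kcnt2, Ryr2 and Nrcam (0.91, 0.90 and 0.90). Grik3 went with Ttbk1, Kif21b and Dcc (0.98, 0.98 and 0.97), of which Ttbk1 kept an r of 0.96 without Poly I:C pup 1.3. Grik4 went with Timp2, Chd5 and Capn5 (0.85, 0.84 and 0.83), and Grik5 with Med25, Tnk2 and Nrxn2 (0.95 for each).

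**Figure D5:**
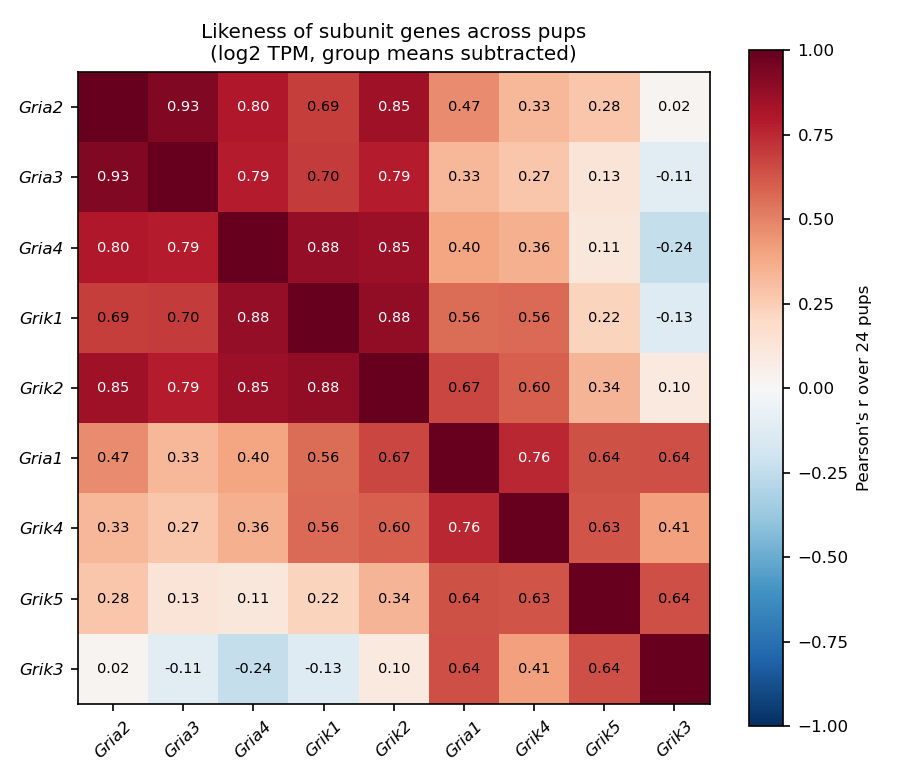
Pearson's r between the subunit genes over 24 pups, on log2 TPM with group means subtracted; red is alike and blue is opposite. The upper left block of 5 genes holds r of 0.69 or more, and the values of Grik3 against that block, -0.24 to 0.10, become 0.05 to 0.33 without Poly I:C pup 1.3.

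The partners of these receptors were counted from lists of 43 genes, of which 39 were in the table and tested. By limma at the unadjusted threshold, 5 were lower under Low Protein (4.47% of all genes), 6 after MAM (7.46%) and 6 after Poly I:C (5.3%), and 0 were higher. Without saline pup 2.1 the counts were 3, 6 and 6, against 2.95%, 11.2% and 4.12% of all genes. After adjustment 0 passed. The median log2 fold change was -0.15, -0.14 and -0.14.

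Auxiliary AMPA subunits escort the receptor to the membrane and set its gating. Of the 10 tested, 1 was lower under Low Protein, 0 after MAM and 2 after Poly I:C. Cacng3, a transmembrane AMPA receptor regulatory protein, ran from 0.0332 to 0.0418 TPM in saline pups. Both the Low Protein pups, at 0.0207 to 0.0315, and the Poly I:C pups, at 0.0150 to 0.0315, lay wholly below that. Its log2 fold change was -0.36 under Low Protein (SE 0.170, limma adjusted p = 0.690) and -0.52 after Poly I:C (adjusted p = 0.368), with an exact permutation p of 0.00216 in each. Non-overlap below saline was found in 0.524% of all genes in Low Protein and in 0.284% in Poly I:C. Cnih2, which encodes the cornichon protein that slows AMPA receptor closing, was 39.96 TPM ± 5.32 in saline and 33.0 ± 3.39 in Poly I:C pups (SD, n = 6; log2 fold change -0.27, limma unadjusted p = 0.00165, adjusted p = 0.297). Both auxiliary kainate subunits were lower in MAM pups. Neto1 ran from 0.124 to 0.148 in saline and from 0.0967 to 0.118 in MAM pups, with no overlap (log2 fold change -0.33, SE 0.140, limma adjusted p = 0.517), as in 0.658% of all genes. Neto2 differed by -0.19 (adjusted p = 0.517).

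Scaffold and trafficking genes, 10 in number, gave 2, 3 and 1 lower genes. Dlg3, a synaptic scaffold of the PSD-95 family, differed by -0.17 under Low Protein and by -0.20 after MAM. Nsf, a factor of vesicle fusion, differed by -0.26 under Low Protein and Gopc by -0.21 after MAM. Dlg4, which encodes PSD-95, differed by -0.20 after Poly I:C. Of 6 assembly factors, 0, 1 and 1 were lower, Sacm1l in MAM (-0.24) and Olfm1 in Poly I:C pups (-0.21). Of 6 secreted or adhesive organisers of synapses, 2, 0 and 1 were lower. C1ql2, whose protein bridges neurexin and kainate receptors, was 0.571 TPM ± 0.349 in saline and 0.223 ± 0.164 in Low Protein pups (SD, n = 6; log2 fold change -1.57, SE 0.508, limma adjusted p = 0.605). C1ql3 differed by -0.41 under Low Protein and by -0.44 after Poly I:C. Of the 2 delta receptor genes, Grid1 was lower in Poly I:C pups (-0.34, limma adjusted p = 0.445). None of the 3 RNA editing genes passed limma. Adarb1, whose enzyme edits the Gria2 transcript, was named after its values were seen. It ran from 0.206 to 0.253 in Low Protein against 0.257 to 0.295 TPM in saline (log2 fold change -0.21, limma unadjusted p = 0.0569, exact permutation p = 0.00216). Such a gap below saline was found in 0.524% of all genes.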

How the data were processed

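RNA was sequenced from the hippocampus and neocortex of 24 rat pups with paired reads of 100 bases. The authors trimmed reads at phred 30 with a minimum length of 25, aligned them with STAR (version 2.4.1d) to rn6, quantified them in Partek against RefSeq rn6 Transcripts 80, and deposited TPM values with an offset of 0.0001. Each pup's deposited TPM values sum to 70350.1. Multiplied by the genomic span in GRCr8, 48.4% to 54.2% of the low values fell within 0.05 of a whole multiple of a step, against 10% by chance, and this step gave the estimated reads. Groups and litters came from the sample names.

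The log2 values of 13371 genes above the offset in at least 18 of 24 pups were compared by limma (version 3.58.1, R version 4.3.3; lmFit and eBayes with trend) over all 24 pups with Benjamini-Hochberg adjustment over all these genes, and each member by an exact two-sided permutation test of mean log2 values over 924 splits. The study's limit of a group mean above 1 kept 5086 genes and 1 member, Grik5, and was used as an alternative. Other alternatives were no filter, 2 scalings, pseudocounts of 0.01 and 1, litter as a random effect, litter means, no variance trend, only the 12 pups compared, a block on the number, and leaving out pups or litters. The fits were tested on simulated data. Members, lists and markers were chosen with earlier results of these data known. All members were named, with the list genes at an unadjusted p under 0.05 in any comparison with saline (at most 4 a list) and the 3 genes most like each member, of which 1 is not reported here.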

Additional observations from a re-analysis of the deposited data

Results flagged for a closer look

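In the saline group, pup 1.3 stood apart from the other 5 for 2 of the 9 subunit genes. Its Gria4 level was 0.0780 TPM, where the next pup had 0.0567, and its Grik2 level was 0.0346 TPM, where the next pup had 0.0289. In each case the gap to the next pup, as a share of the range of the 6 pups, was above Dixon's critical value for 6 samples (shares of 0.657 and 0.701). In all, 36 groups of 6 were examined, and chance gives such a gap in about 1 of 20 groups.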

How the results depend on the processing

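The 27 log2 fold changes of members against saline were recomputed under up to 43 alternative settings each, which gave 1137 values. Of these, 1086 kept the direction and the side of the unadjusted threshold, 27 gained the call, 9 lost it and 15 changed sign. After adjustment 0 passed. Settings that left out pups of other groups, or changed only the model of the spread, could not change a log2 fold change. The kept directions were therefore in part fixed beforehand. Counts of the 9 members at an unadjusted p under 0.05 were 0 and 0 in Low Protein and MAM pups and 1 for Poly I:C. With only the 12 pups compared they were 3, 3 and 0, against 8.84%, 13.2% and 7.34% of all genes. With litter means they were 1 for Low Protein and 0 for Poly I:C, against 672 and 807 of 13371 genes. A pseudocount of 1 gave 1 in MAM, against 1340 of 13371 genes, and the study's limit left 1 member in Poly I:C, of which 0 passed. Leaving out the Poly I:C litter 1 gave 1, 1 and 4, and leaving out litter 2 gave 1, 2 and 0. In Poly I:C pups 17.9% and 4.79% of all genes passed in these 2 settings. Over the 8 settings without 1 litter, 577 to 1208 of all genes passed in Low Protein and 475 to 1592 in MAM. Without saline litter 1 or 2 the Poly I:C count was 0. Over the 4 groups the count of 0 became 2 without either Poly I:C litter, with no share of all genes set beside it. Leaving out single pups gave 0 to 1 in Low Protein, 0 to 2 in MAM, 0 to 3 in Poly I:C and 0 to 1 over the 4 groups, highest in Poly I:C without pup 1.1. The settings over the 4 groups, and the lists without saline pup 2.1, were added after seeing the data. Whether the pup numbers pair the samples was not settled. Same-numbered pups of different groups had correlations of -0.15 to 0.33 (median 0.05), over 0.1 in 14 of 36 pairs. Pups of unlike number in different groups were not set beside them. With the replicate block the count was 1 in Low Protein pups, Grik5, and unchanged in the others. Over all genes the block raised the counts from 951 to 1205 in Low Protein, 1286 to 1614 in MAM and 1223 to 1441 in Poly I:C pups. Signs changed for Grik4 in MAM (0.015 with median of ratios, 0.00033 with upper quartile scaling), and in Poly I:C for Gria2 (-0.010 with upper quartile scaling, -0.25 without Poly I:C litter 1, -0.053 without saline litter 2, and -0.060, -0.025, -0.044, -0.034 and -0.045 without Poly I:C pup 1.1, 1.2 or 1.3 or saline pup 1.1 or 2.1), Gria4 (0.21), Grik2 (0.15) and Grik4 (0.0045) without Poly I:C litter 2, Grik2 (0.049) without pup 2.2 and Grik3 (0.020) without pup 1.3. The cause was not tested. Over all genes the counts ran from 420 to 1208, 475 to 1815 and 507 to 2390. With values times genomic span 3 of the 9 places in the saline order were kept. The rescaling by coding length was not run. Depth limits Grik1 most, with about 117 reads in its lowest pup.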
